A study of Mus musculus with 6 samples.

Results

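The Cyp2b cytochromes P450, the nuclear receptors Nr1i3 and Nr1i2 that control them, and Por, the reductase that serves them, were described across 6 mouse liver libraries. The 8 genes were named by symbol and found among 54532 rows of the count table: Cyp2b9, Cyp2b10, Cyp2b13, Cyp2b19, Cyp2b23, Nr1i3 (CAR, the constitutive androstane receptor), Nr1i2 (PXR, the pregnane X receptor) and Por. The group was chosen by the measured KO against WT difference of Cyp2b9, which is raised in the KO libraries, so the KO against WT values of these genes are given as a description. Where a call of one of them is counted, it comes from the fit of all genes and supports nothing, since the same difference chose the group. Bulk RNA sequencing covered 3 libraries of male Trem2-deficient mice (KO, replicates 4, 5 and 6) and 3 of their male wild-type littermates (WT, replicates 1, 2 and 3). All mice were started on a high-fat diet at 8 weeks of age and stayed on it for 8 weeks, so no library shows either genotype on ordinary chow. Trem2 encodes a lipid-sensing receptor of macrophages. Which part of the gene was deleted, and whether each library came from a separate mouse, are not given in the sources used here. If some did not, the spread between libraries is partly technical.

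CYP2B enzymes sit in the endoplasmic reticulum of hepatocytes and oxidise drugs, steroids and fatty acids with electrons that Por hands on from NADPH. CAR waits in the cytoplasm until a drug such as phenobarbital releases it, then pairs with the retinoid X receptor on DNA. PXR responds to many drugs and steroids and shares a large part of its target genes with CAR. In mice Cyp2b10 is the standard readout of CAR activity, whereas Cyp2b9 and Cyp2b13 are known as female-predominant liver genes that males keep low. Cyp2b19 is known from mouse skin keratinocytes.

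The Cyp2b genes lie on a stretch of chromosome 7 that also holds Cyp2a genes, and their sequences are alike, which bears on how their reads can be told apart. All 8 genes matched a RefSeq promoter on build GRCm38.p6. The starts meant here are those of these promoters. The Cyp2b10 row of the count table begins at 25897620, inside the Cyp2b10 window below. The rows of Cyp2b9 and Cyp2b13 begin just after their windows, at 26173411 and 26061497. The 250 bases before the start of Cyp2b9 (chr7:26173159-26173408, plus strand), Cyp2b13 (chr7:26061245-26061494, plus strand) and Cyp2b10 (chr7:25897408-25897657, plus strand) are shown 5′ to 3′ because the first pair moved together between the groups and Cyp2b10 is the classical CAR target. In Cyp2b9 and Cyp2b13, capitals mark the bases at which these 2 promoters differ. In Cyp2b10, capitals mark bases that a global alignment set against another base or a gap in Cyp2b9.
Cyp2b9: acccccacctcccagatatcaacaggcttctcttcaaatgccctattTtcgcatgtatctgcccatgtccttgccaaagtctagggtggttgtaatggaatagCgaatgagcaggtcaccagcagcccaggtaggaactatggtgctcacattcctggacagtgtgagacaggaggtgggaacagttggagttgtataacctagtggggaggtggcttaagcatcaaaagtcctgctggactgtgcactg
Cyp2b13: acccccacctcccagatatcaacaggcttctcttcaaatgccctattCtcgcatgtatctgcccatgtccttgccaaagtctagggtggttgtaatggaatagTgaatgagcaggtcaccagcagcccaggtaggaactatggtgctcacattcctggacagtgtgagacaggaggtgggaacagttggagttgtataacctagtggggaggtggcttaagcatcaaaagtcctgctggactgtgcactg
Cyp2b10: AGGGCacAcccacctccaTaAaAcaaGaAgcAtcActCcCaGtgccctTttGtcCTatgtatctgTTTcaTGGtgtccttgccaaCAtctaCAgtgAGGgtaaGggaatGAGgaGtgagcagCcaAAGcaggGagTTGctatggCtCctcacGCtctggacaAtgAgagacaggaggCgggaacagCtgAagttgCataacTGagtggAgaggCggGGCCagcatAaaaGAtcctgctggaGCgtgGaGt

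The Cyp2b9 and Cyp2b13 promoters were nearly the same sequence. They were identical at 248 of 250 bases (99.2%) and differed by T48C and C104T, with the Cyp2b9 base first and positions counted from 1 at the 5′ end. Against Cyp2b9, the Cyp2b10 promoter matched at 179 of 240 aligned bases (74.6%), that of Cyp2b19 at 73.7% and that of Cyp2b23 at 77.3%. The nuclear receptor half-site AGGTCA, searched on both strands, was found once in each of Cyp2b9, Cyp2b13, Cyp2b19 and Cyp2b23. In the Cyp2b9 and Cyp2b13 sequences it starts at position 113, which is 138 bases before the start. It was not found in the Cyp2b10 window, whose last bases lie inside the Cyp2b10 row of the count table. Of 32851 RefSeq promoters cut to the same length, 14.0% hold it. Its direct repeat with 4 free bases between, known as DR4, was in 0 of the 5 Cyp2b windows and in 0.0152% of all promoters. The STAT pattern TTCNNNGAA (7.02% of all promoters) and the ONECUT pattern ATCAAT (6.72%) were in 0 of the 5 windows as well. The known phenobarbital-responsive module of Cyp2b10 lies further upstream than these windows, and letters that match a motif are not evidence of a bound site.

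The transcripts were less alike than the promoters of the closest pair. In the GENCODE vM21 models, whose gene positions equal those of the count table for all 8 genes, Cyp2b9 and Cyp2b13 were identical at 91.7% of 1848 aligned bases, with a longest shared run of 113 bases. Of 1827 windows of 50 bases in Cyp2b9, 10.8% occur unchanged in another Cyp2b row, all of them in Cyp2b13. For Cyp2b13 it was 366 of 1826 windows; this gene also shares windows with Cyp2b10 (8.00%) and Cyp2b23 (1.81%). The share was 7.70% for Cyp2b10, 4.44% for Cyp2b23 and 1.68% for Cyp2b19. At 100 bases the shares found in another Cyp2b row were 1.18% for both Cyp2b9 and Cyp2b13 and 0% for Cyp2b10. Of the same 1826 windows of Cyp2b13, 252 are in the pseudogene Gm45225, which had 0 counts in all 6 libraries. Of 1776 windows of 100 bases in Cyp2b13, 151 are in Gm45225, and 9.29% are in any other gene. The read length and the handling of reads with several matches are not given in the sources used here, so reads from the shared stretches remain uncertain between these rows.

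The libraries held 11591021 to 19653758 counts in KO and 13866345 to 20399361 in WT. Levels are given as CPM, counts scaled to a fixed TMM-adjusted library total of 1000000, or as the deposited FPKM where genes are compared with each other, since only FPKM divides by gene length. A gene was called when edgeR's quasi-likelihood test gave a Benjamini-Hochberg adjusted p under 0.05 over 13693 genes; 2 genes were called, both higher in KO, which is 0.0146% of those tested. At an unadjusted p under 0.05 the share was 8.58%, and DESeq2 called 1.29%. Trem2 itself had 9, 6 and 5 counts in KO replicates 4, 5 and 6, against 7, 26 and 26 in WT replicates 1, 2 and 3, so the library labelled WT replicate 1 lay within the KO range and the gene does not separate the labels. Mitochondrially encoded genes took 9.08% to 28.0% of KO counts and 8.16% to 12.7% of WT counts, highest in KO replicate 4, which was also the shallowest library. The 8 hepatocyte markers summed to 84054 to 89608 CPM in KO and 83314 to 108654 CPM in WT. All 6 Kupffer cell markers were fitted higher in KO, with sums of 104 to 177 CPM in KO and 67.9 to 97.6 CPM in WT. All 5 sinusoidal endothelial markers were fitted higher too, with 107 to 129 CPM in KO and 76.2 to 82.9 CPM in WT. Of 4 adipocyte markers, Adipoq, Plin1 and Lep stood at 5.79, 5.65 and 2.96 CPM in KO replicate 5, the KO library lowest in Cyp2b9, and at no more than 0.454 CPM in each other library. The other marker, Cfd, did not single out KO replicate 5. It stood at 71.9, 41.1 and 37.8 CPM in KO replicates 4, 5 and 6. In WT replicates 1, 2 and 3 it stood at 5.23, 59.7 and 19.5 CPM. The 4 summed to 37.8 to 72.6 CPM in KO and 5.30 to 59.7 CPM in WT, most of it Cfd. The part of these cell types in the results below was not tested.

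Cyp2b9 was low in every WT liver and far higher in every KO liver. Cyp2b9 (ENSMUSG00000040660, mm10 chromosome 7, 26173411 to 26210661) had 1736, 1477 and 1716 counts in KO replicates 4, 5 and 6, against 109, 81 and 97 in WT replicates 1, 2 and 3. That is 158, 68.4 and 113 CPM in KO and 6.79, 5.19 and 4.72 CPM in WT. The groups do not overlap: the lowest KO library lay far above the highest WT library, and the KO libraries spread more widely among themselves. The coefficient of variation was 39.5% in KO and 19.6% in WT (n = 3 each). In CPM the KO mean was 113 ± 44.6 and the WT mean 5.57 ± 1.09 (SD, n = 3 each), a fitted log2 change of 4.34 (SE 0.37). In bulk liver, more RNA per hepatocyte and more expressing hepatocytes cannot be told apart.

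Cyp2b9 was 1 of the 2 genes called, and 1 of the 6 genes of this group that passed the filter on low counts; the group was chosen for it, so nothing is read from that count against the 0.0146% of all genes. Its call was lost without KO replicate 4, KO replicate 6 or any single WT library, while its log2 change stayed between 4.02 and 4.60. With Cyp2b9 and Cyp2b13 counts added together as a single gene, 2 genes were again called.

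**Figure D1:**
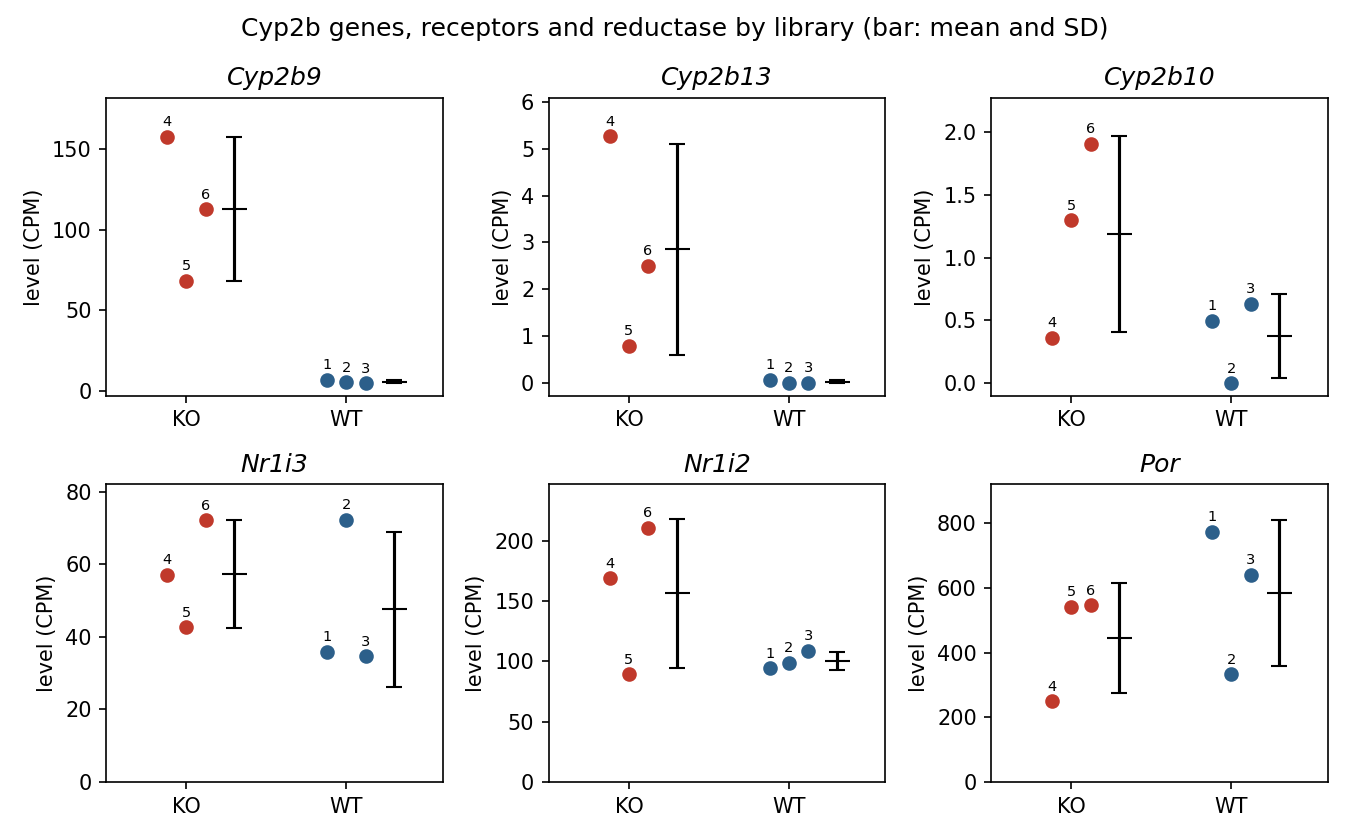
Levels in CPM (vertical axis, linear) of the 6 genes with reads in each library, KO left and WT right; points are libraries labelled by replicate number, and the bar gives the mean and SD of 3 libraries. Cyp2b9 and Cyp2b13 are higher in all 3 KO libraries, while Cyp2b10, Nr1i3, Nr1i2 and Por overlap between the groups.

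Cyp2b13, a close relative of Cyp2b9 with the same female-predominant pattern in mouse liver, followed it at a far lower level. Cyp2b13 (ENSMUSG00000040583, chromosome 7, 26061497 to 26096197) had 58, 17 and 38 counts in KO replicates 4, 5 and 6, against 1, 0 and 0 in WT replicates 1, 2 and 3. The KO libraries stood in the same order as for Cyp2b9, with replicate 4 highest and replicate 5 lowest, and the WT libraries were at or under the 3-count floor. Summed over libraries, the KO to WT ratio was 123 (95% exact interval from 21.7 to 4916, counting error only). The gene passed the count filter only through the KO libraries, so it had to differ. Cyp2b9 had 29.9, 86.9 and 45.2 counts for each Cyp2b13 count in KO replicates 4, 5 and 6, and 109 in WT replicate 1. That ratio therefore varied between libraries. How many Cyp2b13 counts come from Cyp2b9 reads was not tested. The Cyp2b13 row also overlaps the pseudogene Rnf170-ps on the same strand, which had 0, 10 and 3 counts in KO and 11, 1 and 4 in WT, and did not follow Cyp2b13.

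Cyp2b10, the readout gene of CAR, had few counts in both groups. It had 4, 28 and 29 counts in KO replicates 4, 5 and 6 (ENSMUSG00000030483, chromosome 7, 25897620 to 25926624), against 8, 0 and 13 in WT replicates 1, 2 and 3. In CPM these are 0.363, 1.30 and 1.90 in KO and 0.499, 0 and 0.632 in WT. The groups overlap, because KO replicate 4, the library with the highest Cyp2b9, lay below WT replicates 1 and 3. The fitted log2 change was 1.63 (SE 0.95). Summed over libraries there were 61 counts in KO and 21 in WT, a ratio of 3.17 after scaling (95% exact interval from 1.90 to 5.48, counting error only, which leaves out the spread between libraries).

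Cyp2b19, the keratinocyte member, and Cyp2b23 had 0 counts in all 6 libraries, which allows up to 0.0300 CPM each over the pooled libraries (3 counts, counting error only). The pseudogenes Cyp2b26-ps and Cyp2b27-ps, the other Cyp2b rows of the table, were also at 0. Of 5 epidermis markers, Krt5 and Krt1 were at 0 everywhere, and the 5 summed to 6.34 to 8.14 CPM in KO and 5.06 to 5.36 CPM in WT.

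Per unit of length, the liver's Cyp2b RNA was almost wholly Cyp2b9 in each library. The 5 Cyp2b genes summed to 85.8, 36.3 and 61.5 FPKM in KO replicates 4, 5 and 6, against 4.03, 2.74 and 2.79 FPKM in WT replicates 1, 2 and 3. Cyp2b9 made up 96.6%, 97.2% and 96.4% of that in KO and 93.1%, 100% and 89.4% in WT. Cyp2b10 made up 0.198%, 1.64% and 1.45% in KO and 6.07%, 0% and 10.6% in WT.

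Among the 67 P450 genes tested, Cyp2b9 moved up the order of levels without becoming a major one. By FPKM it ranked 14, 32 and 26 in KO replicates 4, 5 and 6, against 44, 46 and 49 in WT replicates 1, 2 and 3. The Cyp2b genes together held 1.55%, 0.504% and 0.734% of the summed P450 FPKM in KO, against 0.0293%, 0.0406% and 0.0362% in WT. Of the 67 genes, 25 were fitted higher and 42 lower, with a median log2 change of -0.16 against -0.01 over all genes tested, and 1 (Cyp2b9) was called.

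**Figure D2:**
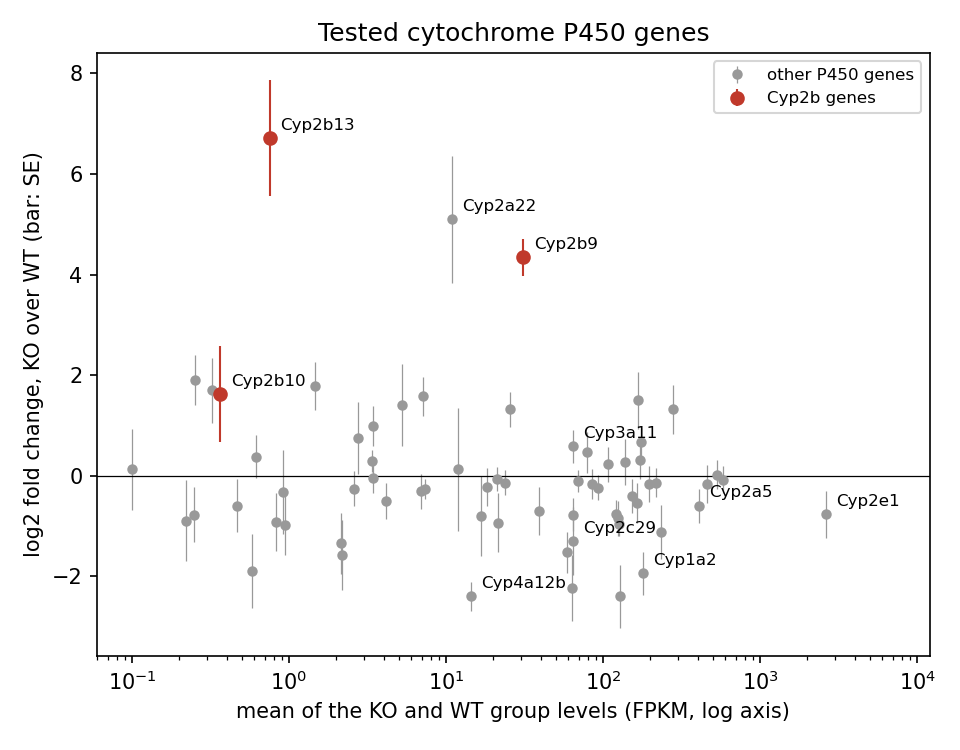
Log2 fold change of KO over WT (vertical axis, bars are the SE) against the mean of the KO and WT group levels in FPKM (horizontal log axis) for the 67 P450 genes tested; Cyp2b genes are red. Cyp2b13, whose WT libraries hold 1, 0 and 0 counts, is plotted at 6.71, Cyp2a22 at 5.10 and Cyp2b9 at 4.34.

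Neither receptor had groups apart as Cyp2b9 did. Nr1i3 (ENSMUSG00000005677, chromosome 1, 171213970 to 171220701), the gene of CAR, stood at 57.1, 42.7 and 72.2 CPM in KO replicates 4, 5 and 6, against 35.9, 72.4 and 34.6 CPM in WT replicates 1, 2 and 3. The groups overlap, and the highest level of all belonged to WT replicate 2. The means were 57.4 ± 14.8 CPM in KO and 47.6 ± 21.4 CPM in WT (SD, n = 3 each), a log2 change of 0.27 (SE 0.34); it was 0.70 without WT replicate 2 and 0.06 without WT replicate 3. Nr1i3 overlaps Tomm40l on the opposite strand by 4691 bases. Tomm40l had 53, 150 and 122 counts in KO and 65, 139 and 119 in WT, well below the 576 to 1130 counts of Nr1i3. Without knowledge of strand, reads of the shared stretch cannot be told apart.

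Nr1i2 (ENSMUSG00000022809, chromosome 16, 38248323 to 38294824), the gene of PXR, was even across WT livers and uneven across KO livers. It stood at 169, 89.6 and 211 CPM in KO replicates 4, 5 and 6, against 94.5, 98.8 and 109 CPM in WT replicates 1, 2 and 3. KO replicates 4 and 6 lay above every WT library and KO replicate 5 below every WT library, so the groups overlap. KO replicate 5 was the lowest KO library for Nr1i3 and Cyp2b9 as well. The coefficient of variation was 39.4% in KO and 7.42% in WT, a difference that was not tested with 3 libraries a group. The log2 change was 0.63 (SE 0.32) and was 0.35 without KO replicate 6 and 0.91 without KO replicate 5. In FPKM there were 5.12, 3.63 and 5.05 Nr1i2 for each Nr1i3 in KO replicates 4, 5 and 6, and 4.55, 2.36 and 5.44 in WT replicates 1, 2 and 3. These ratios depend on the gene lengths of the count table. They are 4414 bases for Nr1i3, which has 8 transcripts, and 2553 bases for Nr1i2, which has 1. A shorter main transcript of Nr1i3 would lower them.

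Por (ENSMUSG00000005514, chromosome 5, 135670033 to 135735326), the electron donor of microsomal P450s, stood at 249, 541 and 546 CPM in KO replicates 4, 5 and 6, against 774, 334 and 641 CPM in WT replicates 1, 2 and 3. The low libraries were KO replicate 4 and WT replicate 2, so each group held a low one and the groups overlap. The means were 445 ± 170 CPM in KO and 583 ± 226 CPM in WT (SD, n = 3 each), a log2 change of -0.39 (SE 0.41). It was -0.10 without KO replicate 4, -0.13 without WT replicate 1 and -0.67 without WT replicate 2. With WT replicate 1 and KO replicate 4 both left out it was 0.16. KO replicate 4 had both the highest Cyp2b9 and the lowest Por.

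The order of levels per length was led by Por in both groups, with gene lengths as the count table gives them. In KO the mean FPKM was 109 ± 41.2 for Por, 60.3 ± 24.2 for Nr1i2, 59.2 ± 23.8 for Cyp2b9, 12.8 ± 3.39 for Nr1i3 and 0.552 ± 0.362 for Cyp2b10 (SD, n = 3 each). Cyp2b13 lay between Nr1i3 and Cyp2b10, with KO libraries from 0.407 to 2.77 FPKM. In WT it was 147 ± 59.3 for Por, 39.7 ± 2.32 for Nr1i2, 10.8 ± 4.72 for Nr1i3, 2.99 ± 0.664 for Cyp2b9, 0.180 ± 0.158 for Cyp2b10 and 0.0115 ± 0.0199 for Cyp2b13. In KO the ranges of Por, Nr1i2 and Cyp2b9 overlap each other, those of Cyp2b13 and Cyp2b10 overlap, and Nr1i3 stands apart from its neighbours on both sides. In WT each of Por, Nr1i2, Nr1i3 and Cyp2b9 keeps a range of its own, and Cyp2b10 and Cyp2b13 overlap at the bottom.

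The genes most like Cyp2b9 across the 6 libraries were ranked by Pearson's r of log2 CPM over 12533 genes of at least 1 CPM. They were 2810025M15Rik (r = 0.998), Dapp1 (0.992), Fcgr1 (0.990), Capg (0.990) and Ttc39a (0.990). Each of them was higher in all 3 KO libraries, with log2 changes between 0.67 and 1.85, none called. Fcgr1, a high-affinity antibody receptor of myeloid cells, averaged 2.22 ± 0.375 CPM in KO and 1.06 ± 0.110 CPM in WT (SD, n = 3 each). Capg, an actin-capping protein abundant in macrophages, averaged 4.32 ± 0.531 CPM in KO and 1.19 ± 0.155 CPM in WT. All these genes share the gap between the groups, which enters the r. The genes most like Nr1i3 were Fibp (r = 0.994), Wdr24 (0.994), Ntm (0.990), 5033406O09Rik (0.986) and Eaf2 (0.984). Each of these overlapped between the groups, and each was highest in WT replicate 2 or KO replicate 6.

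The tested genes around Cyp2b9 were fitted in both directions. Of 91 rows within 1 Mb, 32 had no counts and 34 outside the Cyp2b genes were tested, of which 14 were fitted higher and 20 lower, with a median log2 change of -0.12. Within 500000 bases 8 were tested, of which 6 were fitted higher and 2 lower, with a median log2 change of 0.13; KO was higher without overlap in 3 of the 8. Over the whole 1 Mb, edgeR called 0 of them and limma-voom 0, and DESeq2 called 1, Cyp2a22. Groups were apart with KO higher in 4 of the 34 and KO lower in 3, against 8.12% and 5.73% of all genes tested. Cyp2a22, a P450 of the neighbouring Cyp2a genes, stood at 93.3, 13.7 and 114 CPM in KO replicates 4, 5 and 6, against 0.436, 0.128 and 5.64 CPM in WT replicates 1, 2 and 3. Its log2 change was 5.10 (SE 1.27; edgeR adjusted p = 0.400), and KO replicate 5 was the lowest KO library here as it was for Cyp2b9. Tgfb1, a cytokine of tissue repair (log2 0.65, SE 0.22), and Axl, a receptor tyrosine kinase of macrophages and other cells (log2 0.83, SE 0.30), were the others with the smallest p, at edgeR adjusted p of 0.502 and 0.519. Cyp2a5, the most abundant P450 of this stretch, stood at 675 ± 188 CPM in KO and 1018 ± 371 CPM in WT (log2 -0.59, SE 0.34; edgeR adjusted p = 0.649). Sharing of sequence among the Cyp2a rows was not measured, so reads may be counted under another of them.

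**Figure D3:**
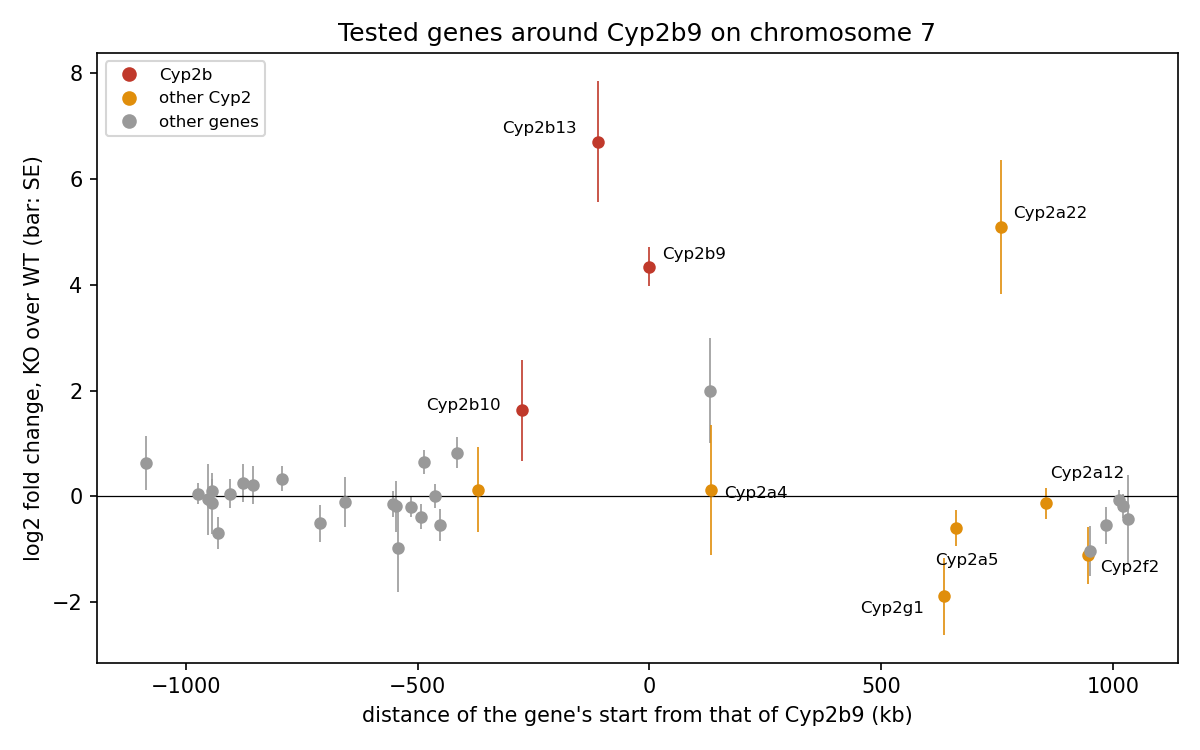
Log2 fold change of KO over WT (vertical axis, bars are the SE) against the distance of each gene's start from that of Cyp2b9 in kb (horizontal axis) for the tested genes that lie at least partly within 1 Mb. Cyp2b13 at 6.71, Cyp2a22 at 5.10 and Cyp2b9 at 4.34 stand above neighbours whose changes scatter around 0.

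Other targets of CAR and PXR were split rather than raised together. Of 36 listed targets outside Cyp2b, 30 were tested; 14 were fitted higher and 16 lower, with a median log2 change of -0.07 against -0.01 over all genes tested. The list's median was -0.36 without WT replicate 2 and 0.11 without WT replicate 1. Of all genes tested, 49.1% were fitted higher and 50.9% lower. edgeR and limma-voom called 0 of the 30 targets, 3 higher and 3 lower had an unadjusted p under 0.05, and DESeq2 called 3 (Cyp1a2, Gsta1 and Gadd45b). Cyp1a2, the caffeine-oxidising P450, averaged 148 ± 32.1 CPM in KO and 566 ± 339 CPM in WT (log2 -1.93, SE 0.43; edgeR adjusted p = 0.370). Gsta1, a glutathione transferase, averaged 10.1 ± 4.33 CPM in KO and 1.54 ± 1.17 CPM in WT (log2 2.68, SE 0.65; edgeR adjusted p = 0.391). Gadd45b, a stress protein that CAR induces, averaged 6.42 ± 3.36 CPM in KO and 1.56 ± 0.646 CPM in WT (log2 2.03, SE 0.53; edgeR adjusted p = 0.400). The most abundant, Gstm1 and Cyp2a5, had log2 changes of 0.47 (SE 0.27) and -0.59 (SE 0.34).

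The P450 targets that are read most often beside Cyp2b10, named here after their values were seen, overlapped between the groups. So did most genes, since only 13.9% of all genes tested had groups apart. Of the 30 targets tested, KO was higher without overlap in 3 and lower without overlap in 2. Over all genes tested these shares were 8.12% and 5.73%. Cyp3a11, the main PXR target of mouse liver, stood at 354, 316 and 521 CPM in KO replicates 4, 5 and 6, against 368, 230 and 193 CPM in WT replicates 1, 2 and 3 (log2 0.59, SE 0.32). Cyp2c29, a CAR target, stood at 44.2, 213 and 85.2 CPM in KO, against 413, 94.8 and 330 CPM in WT (log2 -1.29, SE 0.67). Cyp2c55, strongly inducible through CAR and PXR, stayed at 0.736 ± 0.323 CPM in KO and 1.14 ± 0.380 CPM in WT (log2 -0.59, SE 0.52). The edgeR adjusted p of these 3 genes lay between 0.632 and 0.724.

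No partner of the receptors was called. Of 18 retinoid X receptors, coregulators and CAR-retaining chaperones, all tested, 6 were fitted higher and 12 lower (median log2 -0.06); edgeR, limma-voom and DESeq2 called 0, and 3 lower genes had an unadjusted p under 0.05. These were Egfr, the growth factor receptor whose signal holds CAR inactive (log2 -1.19, SE 0.39), the coactivator Ncoa2 (log2 -0.55, SE 0.22) and Med1, a Mediator subunit (log2 -0.52, SE 0.22), at edgeR adjusted p of 0.470, 0.550 and 0.578. Ncoa2 and Med1 were lower in all 3 KO libraries, and Egfr overlapped between the groups. Hsp90ab1, a chaperone, and Hnf4a, a master regulator of hepatocytes, the most abundant of the list, had log2 changes of -0.49 (SE 0.45) and -0.06 (SE 0.23).

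Electron transfer and haem supply, which every P450 needs, were likewise near even. Of 19 genes, all tested, 11 were fitted higher and 8 lower (median log2 0.06); edgeR, limma-voom and DESeq2 called 0, and 1 higher and 1 lower gene had an unadjusted p under 0.05. Fdx1, the ferredoxin of mitochondrial P450s, averaged 100 ± 23.8 CPM in KO and 172 ± 33.0 CPM in WT (log2 -0.78, SE 0.26; edgeR adjusted p = 0.491). Blvrb, a biliverdin reductase of haem breakdown, averaged 212 ± 34.0 CPM in KO and 144 ± 21.0 CPM in WT (log2 0.56, SE 0.23; edgeR adjusted p = 0.556). Fech, which inserts iron into haem, had a log2 change of -0.60 (SE 0.31). The abundant haem-binding Pgrmc1 and cytochrome b5 gene Cyb5a had log2 changes of 0.20 (SE 0.24) and -0.24 (SE 0.24).

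Cyp2b9 and Cyp2b13 belong to the female-biased genes of mouse liver. Of that set edgeR called Cyp2b9 but not Cyp2b13, and it called 0 of the genes outside Cyp2b. Of 24 female-biased genes outside Cyp2b, 15 were tested; 10 were fitted higher and 5 lower, with a median log2 change of 0.62. The median was 0.10 with genes of low count kept in, 0.15 without KO replicate 6, 0.32 without WT replicate 1 and 0.12 with WT replicate 1 and KO replicate 4 both left out. limma-voom also called 0, 4 higher genes had an unadjusted p under 0.05, and DESeq2 called 2 (Hao2 and Acot3). Hao2, a hydroxyacid oxidase, averaged 6.01 ± 3.58 CPM in KO and 1.04 ± 0.634 CPM in WT (log2 2.50, SE 0.70; edgeR adjusted p = 0.400), and Acot3, a peroxisomal thioesterase, had a log2 change of 1.43 (SE 0.38). The abundant Cyp4a10, a fatty acid hydroxylase, had a log2 change of 1.32 (SE 0.48), and Cyp17a1, a steroid hydroxylase, -0.80 (SE 0.79).

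The 9 female-biased genes that could not be tested included the P450s Cyp3a16, Cyp3a41a, Cyp3a41b and Cyp3a44, which had 0 counts in every KO library and 0 or 1 count in each WT library. The sulfotransferase Sult3a1 had 0, 4 and 3 counts in KO replicates 4, 5 and 6 and 0 in each WT library. These 5 genes, known as strongly female-biased in mouse liver, thus had next to no reads in the KO livers that held Cyp2b9 and Cyp2b13 reads.

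Nearly all male-biased genes had a negative log2 change. Of 20 listed, 19 were tested; 18 of these were lower and the median was -1.34. The median was -0.76 with WT replicate 1 and KO replicate 4 both left out. An unadjusted p under 0.05 was found for 14 lower genes, edgeR and limma-voom called 0, and DESeq2 called 8. In 13 of the 19 all KO libraries lay below all WT libraries, against 5.73% of all genes tested. Hsd3b5, a steroid dehydrogenase, stood at 7.36, 26.1 and 8.27 CPM in KO replicates 4, 5 and 6, against 282, 102 and 174 CPM in WT replicates 1, 2 and 3 (log2 -3.73, SE 0.61; edgeR adjusted p = 0.285). KO replicate 5, the KO library lowest in Cyp2b9, was the highest of the KO libraries here. Cyp4a12b, a fatty acid hydroxylase, had a log2 change of -2.40 (SE 0.28; edgeR adjusted p = 0.155), and Selenbp2, a selenium-binding protein, of -3.16 (SE 0.58; edgeR adjusted p = 0.319). The abundant Serpina1e, a protease inhibitor, and Mup3, a urinary protein, had log2 changes of -4.24 (SE 0.88) and -0.90 (SE 0.36), and both belong to families so alike that reads may be counted under another member.

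Regulators of sex-biased P450 genes were more often fitted lower than higher. Of 21 genes, all tested, 5 were fitted higher and 16 lower (median log2 -0.31, which was -0.13 without WT replicate 2 and -0.48 without KO replicate 5); edgeR and limma-voom called 0, 3 higher and 4 lower genes had an unadjusted p under 0.05, and DESeq2 called 1, Onecut1. Onecut1 (HNF6), a hepatocyte transcription factor, stood at 2.54, 8.38 and 2.69 CPM in KO replicates 4, 5 and 6, against 22.7, 18.8 and 17.5 CPM in WT replicates 1, 2 and 3 (log2 -2.08, SE 0.47; edgeR adjusted p = 0.370). Trim24, a corepressor, had a log2 change of 1.10 (SE 0.33) and Foxa3, a pioneer factor of liver genes, of -0.90 (SE 0.28), at edgeR adjusted p of 0.435 and 0.437. The abundant Cebpb and Cebpa, liver transcription factors, had log2 changes of -0.01 (SE 0.26) and -0.34 (SE 0.24). Stat5b, which carries the growth hormone signal, stood at 43.4 ± 6.16 CPM in KO and 41.1 ± 3.30 CPM in WT (SD, n = 3 each), and was named after its values were seen. So were Cish (log2 -1.79, SE 0.65), Stat5a (log2 0.78, SE 0.33) and Socs2 (log2 -0.86, SE 0.59) of the same list. The edgeR adjusted p of these lay between 0.520 and 0.676. In 4 of the 21, Cish among them, all KO libraries lay below all WT libraries, and in 1 above. Over all genes tested these shares were 5.73% and 8.12%.

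**Figure D4:**
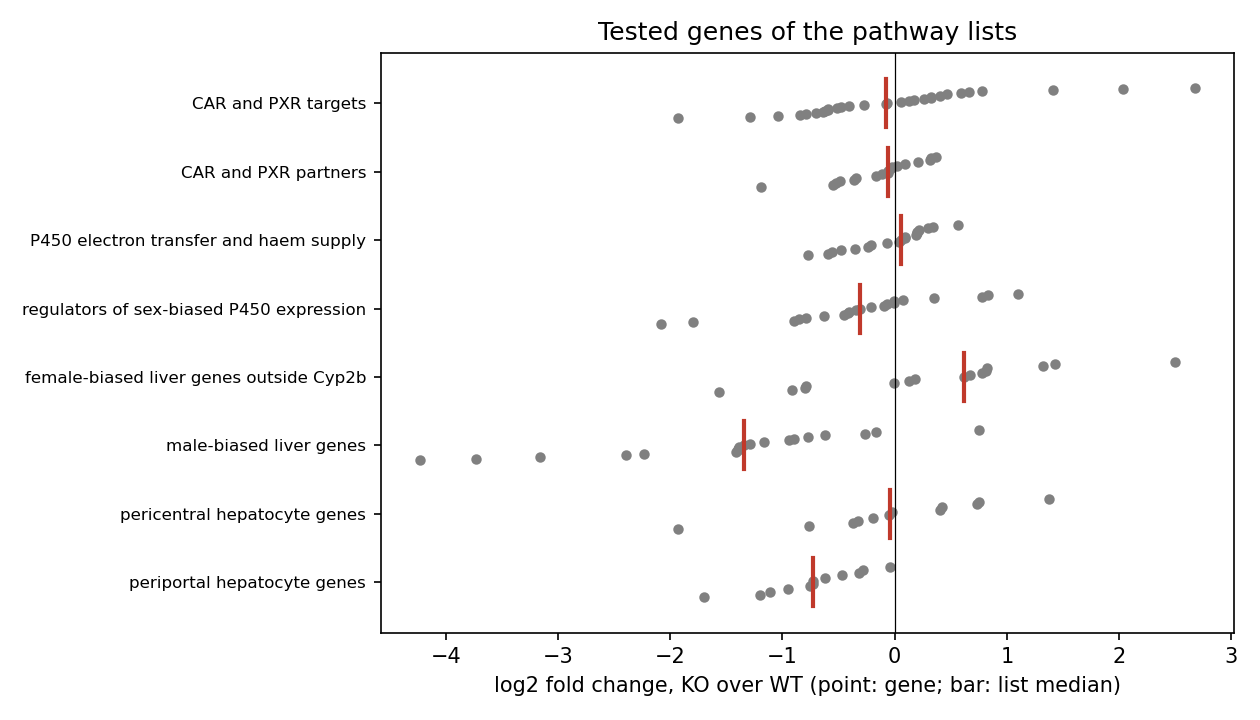
Log2 fold change of KO over WT (horizontal axis) of each tested gene of the 8 pathway lists; points are genes and red bars are list medians. CAR and PXR targets scatter around a median of -0.07, and male-biased genes lie mostly to the left with a median of -1.34.

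CYP2B enzymes are induced mainly in hepatocytes near the central vein, so genes of the lobule's zones were set beside them. Of 12 pericentral genes 5 were fitted higher and 7 lower (median log2 -0.04), and of 12 periportal genes 0 were fitted higher and 12 lower (median log2 -0.73). The periportal median was -0.36 without WT replicate 3. edgeR and limma-voom called 0 in both lists. DESeq2 called 2 pericentral genes (Cyp1a2 and Rhbg) and 0 periportal genes, and an unadjusted p under 0.05 was found for 3 pericentral and 3 periportal genes. Rhbg, an ammonium transporter of the pericentral rim, stood at 7.81, 6.25 and 9.33 CPM in KO replicates 4, 5 and 6, against 3.55, 2.43 and 3.02 CPM in WT replicates 1, 2 and 3 (log2 1.37, SE 0.29; edgeR adjusted p = 0.365). Slc22a3, an organic cation transporter, had a log2 change of 0.73 (SE 0.25), and the abundant Cyp2e1, the ethanol-oxidising P450, and Oat, an aminotransferase, of -0.77 (SE 0.46) and -0.05 (SE 0.26). On the periportal side Cdh1, E-cadherin, had a log2 change of -1.20 (SE 0.40), Cps1, which starts the urea cycle, of -1.70 (SE 0.60) and Arg1, which ends it, of -0.73 (SE 0.31). The urea cycle enzyme Ass1 and Pck1, of glucose synthesis, the most abundant, had log2 changes of -0.75 (SE 0.38) and -0.28 (SE 0.44). The edgeR adjusted p of these periportal genes lay between 0.469 and 0.835. Of the 12 periportal genes, 0 had groups apart. Of the 12 pericentral genes, KO was higher without overlap in 3 and lower without overlap in 1. Over all genes tested 13.9% had groups apart, and little can be read from these counts in such short lists. A difference between the 2 zone lists was not tested.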

How the data were processed

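Frozen liver, Trizol RNA and Illumina TruSeq libraries were used, per the labels' protocols; strandedness was not stated there. Build mm10, featureCounts 1.5.0-p3, HISAT2 2.0.5 and DESeq2 1.16.1 stand in the submitters' processing notes, with no role or setting. The count table that the authors deposited gives reads per gene as whole numbers. The authors' deposited FPKM table divides them by gene length and by library sizes that, as the values imply, differ from the column totals. Counts were tested with edgeR 4.0.16 (R 4.3.3), TMM scaling, filterByExpr and a quasi-likelihood fit of the 6 libraries, checked on simulated data; SE is the log2 change over the square root of F. Alternatives used DESeq2 1.42.0, limma 3.58.1 and FPKM. Promoters are RefSeq, transcripts GENCODE vM21, aligned with Biopython 1.88. Replicate numbers are not shared between groups. No 2 libraries agreed within sampling noise (lowest chi-square per degree of freedom 31.0). Named were, per list, called genes or the 3 of smallest p, and the 2 most abundant. The members, lists and rules were chosen with earlier results of these data known.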

Additional observations from a re-analysis of the deposited data

How the results depend on the processing

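Counts of calls depended most on the tool, the filter and single libraries. Against the 2 genes called by edgeR, DESeq2 called 176, no filter on low counts gave 61, limma-voom 1 and library size alone 1; with 1 library left out the count was 0 to 1, and with WT replicate 1 and KO replicate 4 both left out, an alternative chosen after seeing the data, it was 0. Of the 8 genes described, DESeq2 and no filter called 2 (Cyp2b9 and Cyp2b13), fits without 1 library 0 to 1 and the fit without those 2 libraries 0. Of the pathway list genes DESeq2 called 15 and no filter 7. The log2 change of Cyp2b9 was 3.84 on the log2(FPKM + 1) scale. That of Cyp2b13, 6.71 in edgeR, was 5.54 in limma-voom, 1.19 and 3.53 in FPKM with 1 and 0.1 added, 7.89 without WT replicate 1 and KO replicate 4, and 5.95 to 8.55 with 1 library left out; a constant added to FPKM lowers the change of a gene near 0 by construction, and for the other settings the cause was not tested. Windows of 100 bases in place of 50 gave shares, found in another Cyp2b row, of 1.18% for Cyp2b9 and Cyp2b13 and 0% for Cyp2b10. They were 0.123% for Cyp2b19 and 0.239% for Cyp2b23. Longer windows can only share less.

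The signs of Cyp2b9, Cyp2b13, Cyp2b10, Nr1i3 and Nr1i2 held in every alternative run, and that of Por turned only without both WT replicate 1 and KO replicate 4 (0.16). The median of CAR and PXR targets was -0.36 to 0.11 with 1 library left out, -0.30 with no filter and 0.18 without both. The medians of the electron transfer and pericentral lists, both near 0, took either sign, from -0.05 to 0.10 and from -0.07 to 0.08 over all alternatives. Of 816 alternative values for 51 named genes, 775 kept direction and side of the threshold, 22 became called and 19 changed sign, all of these uncalled. With 1 library left out Hnf4a lay between -0.17 and 0.065, Cebpb between -0.16 and 0.16, Cyp17a1 between -1.29 and 0.91, Oat between -0.18 and 0.10, Pck1 between -0.61 and 0.17, Wdr24 between -0.0084 and 0.46, and Eaf2 between -0.13 and 0.68. Without both libraries the log2 change was 0.10 for Hsp90ab1, 0.15 for Hnf4a, 0.050 for Cebpb, 0.037 for Cyp2e1, 0.36 for Pck1 and -0.017 for Eaf2, and Cebpb was 0.0014 with a minimum of 1 CPM in 3 libraries. The causes of these changes were not tested. No paired analysis was possible because the groups share no replicate numbers. Depth limits Cyp2b10 and Cyp2b13, which rest on at most 58 counts a library.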

Other observations

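Cyp2a4, a steroid hydroxylase 3′ of Cyp2b9 that is also female-biased, was even in the KO livers and widely spread in the WT livers. It stood at 22.4, 22.6 and 21.3 CPM in KO replicates 4, 5 and 6, against 0.436, 3.14 and 56.8 CPM in WT replicates 1, 2 and 3. Cyp17a1 had its highest level in the same library, with 21.9, 31.7 and 26.9 CPM in KO and 9.22, 18.9 and 112 CPM in WT. WT replicate 3 was the lowest of all libraries in Cyp2b9. Gm42375, an antisense row that overlaps the start of Cyp2a4, averaged 1.17 ± 0.414 CPM in KO and 0.264 ± 0.404 CPM in WT (SD, n = 3 each), and without strand the reads of the short overlap cannot be told apart. How far Cyp2a4 shares sequence with the more abundant Cyp2a5 was not measured, so some Cyp2a4 counts may come from Cyp2a5 reads.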
